A study of Prunus persica with 20 samples.

Results

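The gene expression of Sunraycer, a smooth nectarine stated to be gg at the G locus, was compared with that of TN7, a hairy peach stated to be Gg, in fruit taken at fruit set. The 9 libraries were chosen by their labels alone, 5 of Sunraycer and 4 of TN7, out of 19 in the table. Every gene with enough counts entered the comparison, which left 19360 of 26811 genes. Of the other 7451 genes, 2286 had no count in any library. The remaining libraries were 5 of MN, a smooth mutant nectarine stated to be Gg, and 5 of TN11, a hairy peach stated to be GG. They shared the count filter, the scaling and the estimate of spread with the comparison, and are shown where their levels place the genes. The study aimed to learn how fruit hairs are controlled.

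Peach fuzz consists of trichomes, hairs that grow out of single cells of the fruit epidermis. Nectarines are peaches that lack them, a recessive trait that maps to the G locus on chromosome 5. Earlier work placed at G a gene for an R2R3-type MYB transcription factor, PpMYB25, and traced the smooth allele to a retroelement inserted in that gene. Stated genotype, fruit surface and the whole genetic background of an accession changed together between Sunraycer and TN7, and each was represented by a single accession, so these cannot be told apart. The files give gene identifiers without names, and no identifier matched the reference table of gene names (0 matched). Genes are therefore given by identifier, in which the digit after the dot is the chromosome and the number after G follows the order along it. The labelled tissue could not be checked against marker genes for the same reason.

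Library totals ran from 14890206 to 24474843 counts, both in Sunraycer libraries. Levels are given as CPM, read counts brought to the same library size by TMM scaling, which are not divided by gene length, so that they compare libraries and not genes. A pair of libraries stood apart from the others of their accession. Sunraycer 1 had a mean correlation of 0.927 with the other Sunraycer libraries, and TN7 5 one of 0.947 with the other TN7 libraries. The largest direction of spread within accessions held 39.7% of the variance of log2 CPM around the accession means. Scores on it averaged 0.447 ± 0.333 in Sunraycer (SD, n = 5) and -0.0733 ± 0.292 in TN7 (SD, n = 4). Sunraycer 1 had the highest score, set to 1.0 by the scaling of the scores. TN7 5, at 0.31, scored above Sunraycer 3, at 0.14, and Sunraycer 10, at 0.267. The direction thus moved partly with the comparison, and its part in the results was not tested beyond a fit with the score as a covariate, which is given where it ended a call. Because the score also holds differences between accessions, that fit can take up part of the comparison itself.

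Prupe.5G196100.v2.1 is taken here as the MYB gene of the G locus from published work, since the files do not name it, and it bears on the stated genotypes. It was low in each Sunraycer library, at 1.43, 1.85, 3.06, 4.96 and 0.847 CPM, and higher in each TN7 library, at 17.8, 14.3, 18.9 and 16.5 CPM. The accessions did not overlap. Its mean was 2.43 ± 1.63 CPM in Sunraycer (SD, n = 5) and 16.9 ± 2.00 CPM in TN7 (SD, n = 4), which made it 6.90-fold lower in Sunraycer (log2 fold change -2.79, SE 0.343, edgeR adjusted p = 1.06e-05). An exact two-sided permutation test on CPM gave p = 0.0159, the smallest value that groups of 5 and 4 allow. For orientation, MN averaged 3.28 CPM and TN11 44.7 CPM.

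The genes beside it did not move as a block. Of the 20 tested genes on each side, 40 in all, 3 were higher and 2 lower in Sunraycer by the 2-fold rule given below, which called 9.71% of all tested genes higher and 6.45% lower, with a median log2 fold change of -0.13 against -0.06 for all tested genes. The next gene on the higher side, Prupe.5G196200.v2.1, averaged 51.6 ± 9.34 CPM in Sunraycer (SD, n = 5) and 52.8 ± 1.62 CPM in TN7 (SD, n = 4), a log2 fold change of -0.03 (SE 0.139, edgeR adjusted p = 0.871). The next gene on the lower side, Prupe.5G196000.v2.1, stood at 124.6, 81.5, 39.4, 79.8 and 59.9 CPM in Sunraycer, against 1.79, 2.99, 2.75 and 25.5 CPM in TN7. Every Sunraycer library was above every TN7 library, but TN7 5 lay far above the other TN7 libraries. The log2 fold change of Prupe.5G196000.v2.1 was 3.23 (SE 0.939, edgeR adjusted p = 0.0137), it was 4.94 without TN7 5, and with the score as a covariate it was 1.63 and no longer passed the test (edgeR adjusted p = 0.0589).

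**Figure D1:**
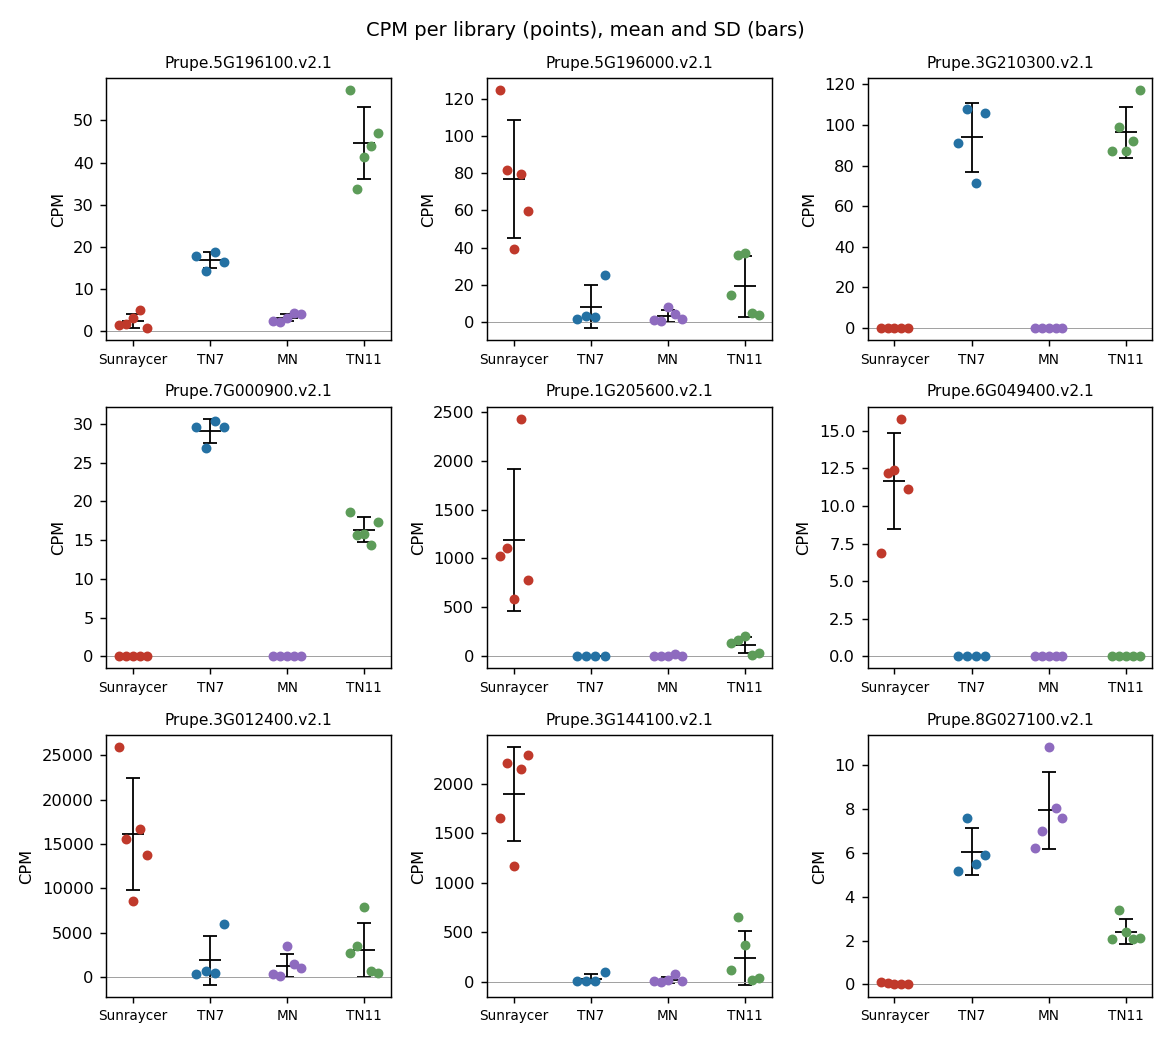
CPM of 9 genes in every library (points) with the mean and SD of each accession (bars), in the order Sunraycer, TN7, MN and TN11; vertical scales differ between genes. The G locus gene and the genes at 0 in Sunraycer separate Sunraycer and TN7 cleanly, whereas TN7 5 is the high TN7 point of Prupe.5G196000.v2.1 and Prupe.3G012400.v2.1. Other accessions can overlap, as Sunraycer and MN do for the G locus gene.

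Across all genes, a call needed a Benjamini-Hochberg adjusted p under 0.05 in edgeR's quasi-likelihood test together with a 2-fold difference or more. By this rule 3129 genes were called, 16.2% of those tested. The genes higher in Sunraycer numbered 1880 (9.71%) and the genes lower in Sunraycer 1249 (6.45%). By adjusted p alone 6967 genes passed (36.0%) and the split was nearly even, with 3599 higher (18.6%) and 3368 lower (17.4%) genes. The excess of higher genes also depended on the fit: with the score of spread as a covariate 1049 genes were higher and 1114 lower. No gene called here was called in the opposite direction in any alternative fit (0 genes).

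The size of the differences varied widely in both directions. The median difference was 3.97-fold among higher genes and 3.28-fold among lower genes, and setting genes without a count in 1 accession to their lower bound left the medians at 3.96 and 3.28. With those genes at their bound, 932 higher genes and 518 lower genes reached 4-fold, and 133 higher and 139 lower genes reached 32-fold. The higher genes had a median of 15.2 CPM in Sunraycer and 2.84 CPM in TN7. The lower genes had a median of 1.16 CPM in Sunraycer and 5.2 CPM in TN7.

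Overlap of the libraries differed between the directions. All Sunraycer libraries lay above all TN7 libraries in 1232 of the 1880 higher genes (65.5%), and below all of them in 1057 of the 1249 lower genes (84.6%). Over all tested genes the libraries did not overlap in 21.5%, with Sunraycer wholly above in 10.3% and wholly below in 11.2%, and since the call rests on the same libraries nothing further is read from these counts. Sunraycer 1 exceeded every TN7 library in 1824 of the higher genes, but Sunraycer 3 in only 1429 (76.0%). TN7 5 lay below every Sunraycer library in 1335 of them (71.0%), against 1716 to 1793 for the other TN7 libraries. Without Sunraycer 1 and TN7 5, libraries did not overlap in 92.4% of the higher and 94.2% of the lower genes called then. These shares cover the genes also tested in the main fit, 2205 higher and 1146 lower. Fewer libraries also made a lack of overlap commoner among all genes tested in the main fit (38.5%, against 21.5%). The spread matched this: the coefficient of variation had a median of 0.455 in Sunraycer and 0.509 in TN7 for the higher genes, 0.456 in Sunraycer and 0.275 in TN7 for the lower genes, and 0.278 in Sunraycer and 0.184 in TN7 for all tested genes.

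**Figure D2:**
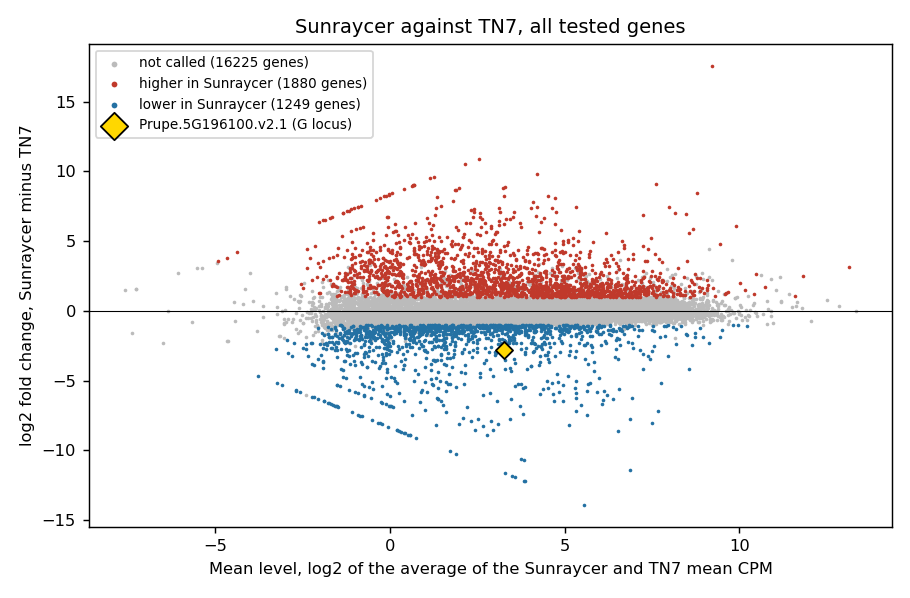
Log2 fold change, Sunraycer minus TN7, against mean level (log2 CPM) for each tested gene with a count in either accession; called genes are coloured and the diamond is the G locus gene. The G locus gene, at -2.79, lies within the cloud of lower genes, and the genes farthest from 0 include those without a count in 1 accession, whose fitted values depend on the small count added.

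The called genes took up different shares of the messenger RNA. The 1880 higher genes held 14.0 ± 3.56% of the counts in Sunraycer (SD, n = 5; 9.13% to 19.0%) and 4.18 ± 1.94% in TN7 (SD, n = 4; 2.94% to 7.05%, the highest in TN7 5). They held 3.93 ± 0.875% in MN and 5.45 ± 1.53% in TN11 (SD, n = 5 each), accessions that entered the fit through its filter, scaling and spread but not the difference that was tested. The 1249 lower genes held 1.17 ± 0.31% in Sunraycer (SD, n = 5) and 4.58 ± 0.853% in TN7 (SD, n = 4). Their share was 2.13 ± 0.121% in MN, between Sunraycer and TN7, and 5.01 ± 0.751% in TN11 (SD, n = 5 each). The shares in Sunraycer and TN7 follow from the choice of the genes and are given as a description.

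**Figure D3:**
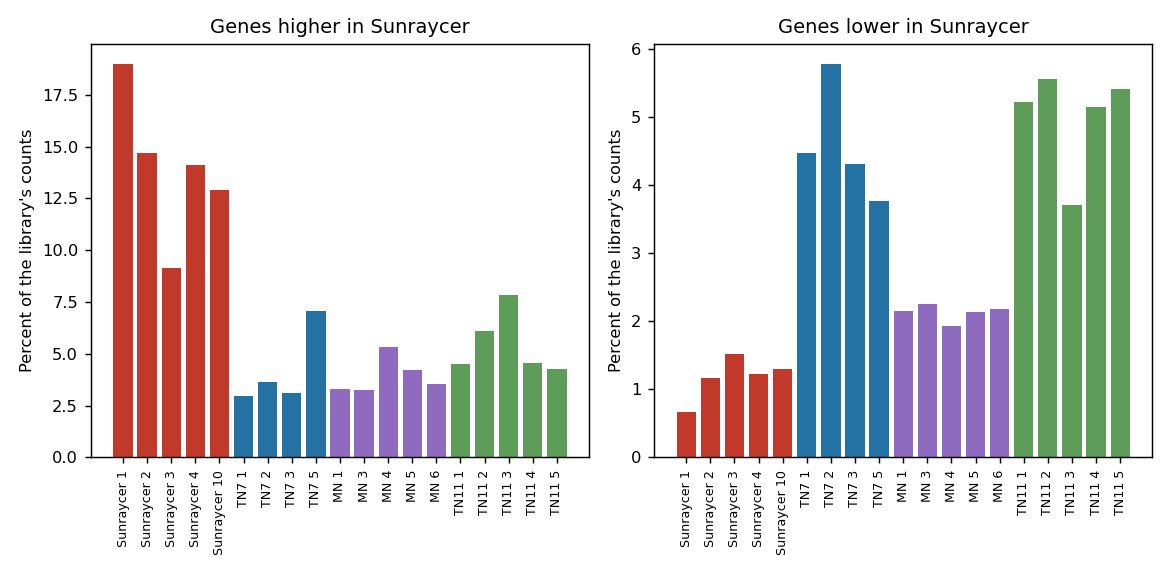
Percent of each library's counts that came from the 1880 genes higher in Sunraycer (left) and from the 1249 genes lower in Sunraycer (right), 1 bar per library; Sunraycer bars stand first, then TN7, MN and TN11. Sunraycer 1 has the highest share of higher genes, at 19.0%, and among TN7 libraries TN7 5 has the highest, at 7.05%; MN lies between Sunraycer and TN7 for the lower genes.

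TN11 lay nearer TN7 in most of the called genes of both directions. MN did so for the higher genes but lay nearer Sunraycer in most of the lower genes. For the higher genes, the mean log2 level was nearer TN7 than Sunraycer in both MN and TN11 in 1262 genes (67.1%). MN was nearer Sunraycer in 240 of the higher genes (12.8%) and TN11 in 482 (25.6%). For the lower genes, MN was nearer Sunraycer in 727 (58.2%) and TN11 in 172 (13.8%), and in 644 (51.6%) MN alone was. Among the 16231 genes that were not called, MN was nearer Sunraycer in 27.8% and TN11 in 29.0%. With the score as a covariate the share of higher genes with MN nearer Sunraycer was 30.3%, so that low share depended on the fit, and for lower genes it was 73.6%.

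Genes with low levels in the other accessions were called more often. Of genes averaging under 1 CPM in MN and TN11, 40.2% were called, against 24.7% at 1 to 10 CPM, 9.3% at 10 to 100 CPM and 7.21% at 100 CPM or more. The classes use accessions outside the comparison, but a gene at a low level there could enter the test by being high in Sunraycer or TN7, which by itself raises the share in the lowest class.

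Some called genes were counted in either Sunraycer or TN7 but not in the other. Among the lower genes, 46 had no count in any Sunraycer library while TN7 averaged 0.147 to 94 CPM, at a median of 1.28 CPM, and 8 of the 46 reached 5 CPM in TN7. Of the 46, 18 also had no count in MN but some in TN11, 3 had none in TN11 but some in MN, 2 had none in either and 23 were counted in both. Among the higher genes, 34 had no count in any TN7 library, while Sunraycer averaged 0.0659 to 1184 CPM, at a median of 1.32 CPM. Of these, 3 reached 5 CPM in Sunraycer, 4 also had no count in MN alone, 6 in TN11 alone and 5 in both, and 19 were counted in both. With the score as a covariate, 32 of 1049 higher genes (3.05%, against 1.81% here) had no count in TN7. How often all tested genes lacked a count in each accession was not worked out. These counts therefore do not show which accessions share missing genes more than tested genes at large.

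The 6 lower genes with the largest differences, among genes at 5 CPM or more with no overlap, all lacked a count in Sunraycer. Their TN7 means ran from 19.7 to 94 CPM. Prupe.3G210300.v2.1 had 0 CPM in all 5 Sunraycer libraries, against 91.2, 107.8, 71.2 and 105.7 CPM in TN7. TN7 averaged 94 ± 16.9 CPM (SD, n = 4). Taking 3 counts over the Sunraycer libraries as the upper limit of a count of 0, Prupe.3G210300.v2.1 was at least 2731-fold lower in Sunraycer (edgeR adjusted p = 1.32e-09). It also had 0 CPM in MN, and 96.4 CPM in TN11. Prupe.7G000900.v2.1 had 0 CPM in all Sunraycer libraries, against 29.6, 26.9, 30.4 and 29.6 CPM in TN7, and was at least 846-fold lower (edgeR adjusted p = 7.78e-11). It averaged 0.0169 CPM in MN and 16.4 CPM in TN11. In all 6 of these genes MN averaged no more than 0.0169 CPM, while TN11 ranged from 0 to 96.4 CPM.

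The 6 higher genes chosen in the same way had Sunraycer means of 8.85 to 1184 CPM, and 3 of them had no count in TN7. Prupe.1G205600.v2.1 had 1027, 1108, 579, 2428 and 777 CPM in Sunraycer, against 0 CPM in all 4 TN7 libraries. All Sunraycer libraries were high, Sunraycer 4 the most, with a mean of 1184 ± 726 CPM (SD, n = 5). That mean was at least 33474-fold higher than 3 counts over the TN7 libraries (edgeR adjusted p = 0.000119). The bound covers counting error in TN7 only and not the spread among Sunraycer libraries. Prupe.1G205600.v2.1 averaged 5.04 CPM in MN and ranged from 13.7 to 201.8 CPM in TN11. Prupe.6G049400.v2.1 had 6.87, 12.2, 12.4, 15.8 and 11.1 CPM in Sunraycer and 0 CPM in all libraries of TN7, MN and TN11. It was at least 329.9-fold higher in Sunraycer than in TN7 (edgeR adjusted p = 2.29e-05). With no count elsewhere, Prupe.6G049400.v2.1 passed the count filter only through Sunraycer, where it is high, so its p is given as a description. All 12 of these genes kept an adjusted p below 0.05 with the score as a covariate. They were chosen for large differences without overlap in the same libraries, which favours this outcome, so nothing is read from it.

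The called genes with the highest CPM were chosen with no condition on overlap, and on size none beyond the call. How well they held is therefore not compared with the genes above. Of the 4 higher genes with the highest mean CPM, 0 kept an adjusted p below 0.05 with the score as a covariate, and of the 4 lower genes 1 did. That gene fell under 2-fold with the covariate, at a log2 fold change of -0.85, and so lost the call as well. Prupe.3G012400.v2.1 had 25918, 15506, 8543, 16722 and 13742 CPM in Sunraycer, against 266, 658, 480 and 5975 CPM in TN7. TN7 5 came close to the lowest Sunraycer library. The log2 fold change of Prupe.3G012400.v2.1 was 3.12 (SE 1.09, edgeR adjusted p = 0.0333), with means of 16086 ± 6320.3 CPM in Sunraycer (SD, n = 5) and 1845 ± 2758 CPM in TN7 (SD, n = 4). Without TN7 5 it was 5.10 (edgeR adjusted p = 0.00268), and leaving out Sunraycer 1, TN7 1, TN7 2 or TN7 3 ended the call, with adjusted p of 0.0583, 0.0871, 0.0847 and 0.0918. The call of Prupe.3G012400.v2.1 was also lost in a fit of the Sunraycer and TN7 libraries alone (edgeR adjusted p = 0.0525), and in a test against 1.5-fold (edgeR adjusted p = 0.0898).

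Its neighbour Prupe.3G012200.v2.1 had 10149, 5970.1, 3496, 6222 and 4771 CPM in Sunraycer, against 253, 612, 271 and 3248 CPM in TN7. It showed the same high TN7 5, and its log2 fold change of 2.48 (SE 0.948) only just passed the test (edgeR adjusted p = 0.0494). It lost the call when any library but Sunraycer 3 or TN7 5 was left out, at adjusted p of 0.0509 to 0.126, and reached 4.01 without TN7 5. It also lost the call without the count filter (edgeR adjusted p = 0.0519), with the Sunraycer and TN7 libraries alone (0.0636) and against 1.5-fold (0.142). Together Prupe.3G012200.v2.1 and Prupe.3G012400.v2.1 held 2.02 ± 0.677% of the counts in Sunraycer (SD, n = 5) and 0.296 ± 0.416% in TN7 (SD, n = 4). With the score as a covariate the adjusted p was 0.155 for Prupe.3G012400.v2.1 and 0.364 for Prupe.3G012200.v2.1.

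On the lower side, Prupe.7G009200.v2.1 had 329.7, 713, 1066, 769.9 and 946 CPM in Sunraycer, against 1650.3, 1898, 1800 and 1156 CPM in TN7. The accessions did not overlap, and the log2 fold change was -1.09 (SE 0.251, edgeR adjusted p = 0.00331). Without Sunraycer 1, Prupe.7G009200.v2.1 was at -0.86 and under 2-fold, and with the score as a covariate it was at -0.53 (edgeR adjusted p = 0.0783). It also lost the call without Sunraycer 1 and TN7 5 together (-0.99, under 2-fold) and against 1.5-fold (edgeR adjusted p = 0.0631). Prupe.8G150900.v2.1 had 187, 454, 946, 599 and 1146 CPM in Sunraycer, against 1416, 1441, 1354 and 1138 CPM in TN7. Here Sunraycer 10 overlapped TN7, and the log2 fold change was -1.0 (SE 0.346, edgeR adjusted p = 0.0316). Prupe.8G150900.v2.1 lost the call without Sunraycer 1, Sunraycer 2, Sunraycer 4, TN7 1, TN7 2 or TN7 3, and with the score as a covariate (log2 fold change -0.34, edgeR adjusted p = 0.449). It was also not called with RLE scaling, with DESeq2 or without the count filter (-0.98 in each, under 2-fold), without Sunraycer 1 and TN7 5 together (-0.80), with the Sunraycer and TN7 libraries alone (edgeR adjusted p = 0.14) or against 1.5-fold (0.226).

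Called genes lay on every chromosome at similar rates. The share of tested genes that was called ran from 14.0% on chromosome 7 to 18.9% on chromosome 4. Higher genes made up 56% of the calls on chromosome 6 and 67.5% on chromosome 4, the lowest and highest of the 8 chromosomes. In windows of 25 consecutive tested genes the median was 4 called genes and the 95th percentile 8, and 419 of 19168 overlapping windows had none. The most calls in a window, 15, came in 8 windows, the first of which ran from Prupe.1G126100.v2.1 to Prupe.1G129100.v2.1 and held 13 higher and 2 lower genes. Lower genes reached at most 9 in a window, first in that from Prupe.8G024200.v2.1 to Prupe.8G027300.v2.1.

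**Figure D4:**
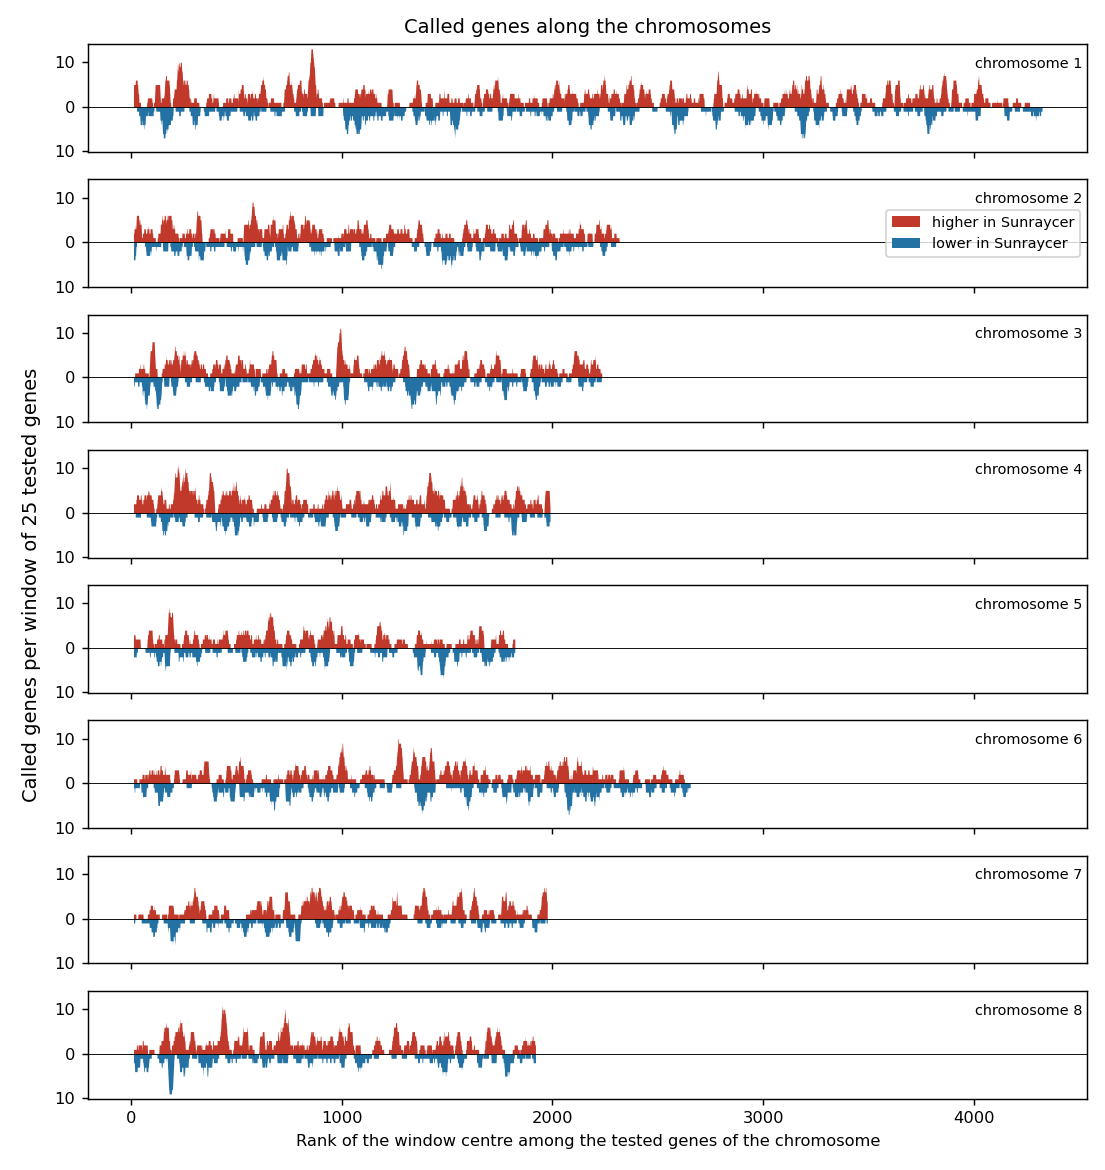
Number of genes called higher (above the line) and lower (below the line) in Sunraycer in sliding windows of 25 tested genes along the 8 chromosomes, by gene rank. Calls are spread over all chromosomes, with the tallest peak, 13 higher genes, on chromosome 1 and the deepest trough, 9 lower genes, near the start of chromosome 8.

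Neighbouring genes often shared a direction. A higher gene was followed by another higher gene in 348 of 1880 cases (18.5%), against 9.71% of all tested genes, and by a lower gene in 108 (5.74%). A lower gene was followed by another lower gene in 152 of 1249 cases (12.2%), against 6.45% of all tested genes, and by a higher gene in 121 (9.69%). Runs of at least 2 neighbours with the same direction numbered 376 and held 876 genes, of which 255 runs with 603 genes were higher and 121 runs with 273 genes were lower. Runs of at least 5 genes numbered 7, of which 6 were higher and 1 lower. Whether the genes of a run are copies of each other could not be seen without sequences. How reads shared by near-identical copies were divided is not given in the sources used here, so levels of single genes in a run are uncertain.

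On chromosome 3, from Prupe.3G143800.v2.1 to Prupe.3G144500.v2.1, 7 tested genes in a row were higher, and in all 7 the accessions did not overlap. Their means ran from 3.2 to 1896 CPM in Sunraycer and from 0 to 27.8 CPM in TN7, with a median difference of 57.2-fold (the same with the 1 gene without a count in TN7 at its lower bound). Prupe.3G144100.v2.1 had 1657, 2210.1, 1172, 2155 and 2289 CPM in Sunraycer, against 5.08, 7.09, 3.96 and 94.9 CPM in TN7. All Sunraycer libraries were far above TN7, and TN7 5 was far above the other TN7 libraries. Its log2 fold change was 6.10 (SE 1.64, edgeR adjusted p = 0.00895), and it was 8.46 without TN7 5. Prupe.3G144100.v2.1 ranged from 0.224 to 74.4 CPM in MN and from 13.8 to 655.4 CPM in TN11.

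Prupe.3G144000.v2.1, next to it, had 774, 1210.5, 343, 925 and 1126 CPM in Sunraycer, against 0.417, 0.771, 0.42 and 8.75 CPM in TN7. Its log2 fold change was 8.43 (SE 1.75, edgeR adjusted p = 0.00155), and it was 10.67 without TN7 5. With the score as a covariate 5 of the 7 genes of the run stayed called, Prupe.3G144000.v2.1 among them at 6.66 (edgeR adjusted p = 0.00271).

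Another run on chromosome 3, from Prupe.3G012200.v2.1 to Prupe.3G012800.v2.1, held 6 higher genes, with differences of 3.78-fold to 47.5-fold, and included the abundant pair described above. Prupe.3G012600.v2.1 had the largest of these, with 992, 907, 379, 972 and 422 CPM in Sunraycer, against 5.12, 9.59, 7.46 and 39.8 CPM in TN7. All Sunraycer libraries were above TN7, and TN7 5 was again the highest of TN7 (log2 fold change 5.57, SE 1.07, edgeR adjusted p = 0.000822; 6.63 without TN7 5). With the score as a covariate 3 of the 6 genes stayed called. The other higher runs were on chromosome 1 from Prupe.1G127200.v2.1 (5 genes, median 4.5-fold), chromosome 4 from Prupe.4G048100.v2.1 (5 genes, 2.57-fold), chromosome 5 from Prupe.5G025000.v2.1 (5 genes, 6.64-fold) and chromosome 6 from Prupe.6G185100.v2.1 (6 genes, 11.2-fold). With the score as a covariate 4 genes of the run on chromosome 1, 2 of that on chromosome 4, 0 of that on chromosome 5 and 5 of that on chromosome 6 stayed called.

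The lower run lay on chromosome 8, from Prupe.8G026500.v2.1 to Prupe.8G027100.v2.1, with 7 genes at very low levels in Sunraycer. Its median difference was 56.9-fold with the 2 genes without a count in Sunraycer at their lower bound, and 97.5-fold as fitted. Their means ran from 0 to 0.148 CPM in Sunraycer and from 0.557 to 6.04 CPM in TN7, and in all 7 the accessions did not overlap. MN averaged 1.33 to 26.5 CPM for these genes and TN11 0 to 2.41 CPM. All 7 stayed called with the score as a covariate and without Sunraycer 1 and TN7 5. In a fit of the Sunraycer and TN7 libraries alone, 2 of the 7 were under the count filter and not tested, and 5 stayed called. Prupe.8G026500.v2.1 had 0 CPM in all Sunraycer libraries, against 2.0, 3.47, 2.8 and 3.54 CPM in TN7, and was at least 85.8-fold lower in Sunraycer (edgeR adjusted p = 6.96e-07). Prupe.8G027100.v2.1 had 3 counts over the Sunraycer libraries, in Sunraycer 1 and Sunraycer 2, against 509 over the TN7 libraries. At equal depth that made it 174-fold lower in Sunraycer (exact 95% interval 59.3 to 848, counting error only; edgeR adjusted p = 1.44e-09), with 5.17, 7.57, 5.5 and 5.91 CPM in TN7. Prupe.8G026800.v2.1 was counted in Sunraycer 1 alone, at 0.518 CPM, against 1.71, 2.89, 1.26 and 1.34 CPM in TN7, and its log2 fold change of -4.18 (SE 0.672, edgeR adjusted p = 0.000178) had that 1 library on the Sunraycer side. Without Sunraycer 1 it had no count in Sunraycer and was at least 43.0-fold lower than in TN7.

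**Figure D5:**
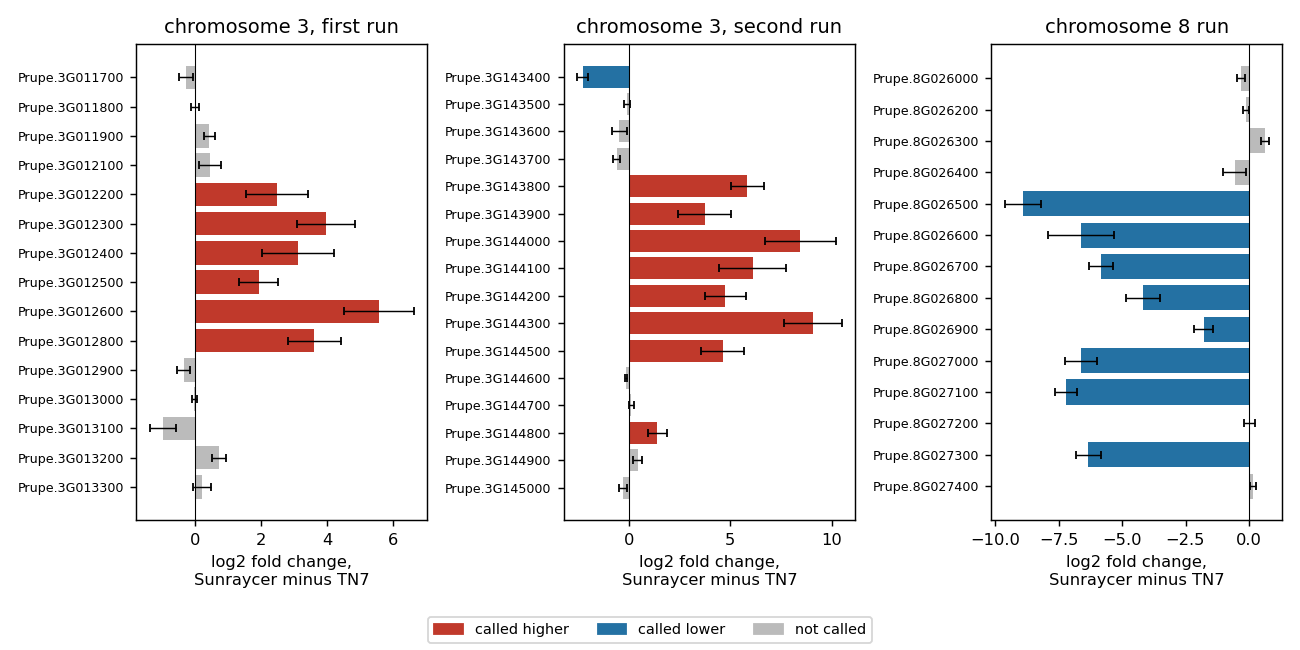
Log2 fold change, Sunraycer minus TN7, with SE (bars) for the tested genes in and around 3 runs of neighbouring called genes, in gene order. The 6 and 7 genes of the runs on chromosome 3 are all higher in Sunraycer and the 7 genes on chromosome 8 all lower, with abrupt ends at genes that were mostly not called.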

How the data were processed

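Messenger RNA of fruit at fruit set was sequenced from 4 accessions, and 19 of 20 labelled libraries were analysed; TN7 4 was not analysed here. Per the labels' protocols, RNA came from the RNeasy Plant Mini Kit and libraries from the TruSeq Stranded mRNA kit. The authors deposited estimated counts per gene, not normalized, with 0 values that were not whole. The submitters' processing notes name Bowtie2 2.5.1, RSEM 1.2.31, R 4.1.1 and DESeq2 without a role. What genome build, strand setting and filters were used is not given in the sources used here, so overlapping and antisense genes could not be told apart. All columns were matched to titles (0 unmatched).

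Genes kept by filterByExpr were scaled by TMM and tested in a quasi-likelihood fit of edgeR, 1 mean per accession over all 19 libraries, with Benjamini-Hochberg adjustment over 19360 genes. The SE is the log2 fold change divided by the square root of F. A fold against an accession without counts is a lower bound against 3 counts over it. Such a bound covers counting error in that accession only and takes the mean of the other accession as exact. The direction of spread is the first component of log2 CPM deviations from accession means. Each library's score is its log2 CPM, centred on the mean of all libraries, projected on that direction. The scores were divided by the largest absolute score, and they hold differences between accessions as well as within them. The tools were edgeR 4.0.16, DESeq2 1.42.0 and limma 3.58.1 in R 4.3.3, and SciPy 1.17.1 in Python 3.11.15. The fit was run on simulated counts with planted differences. Those counts had no shared direction of spread, so they cannot show how the fit behaves with it.

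The labels do not say whether replicates were separate trees or fruits, and p-values cover only the spread among these libraries, which may be technical. The closest replicate pair, TN7 1 and TN7 3, differed by more than sampling noise (chi-square per degree of freedom 9.40). Alternatives were other scalings, filters, tools, thresholds, sample sets and a replicate block.

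The rule for named genes took the G locus gene, the 6 higher and 6 lower genes with the largest differences among genes without overlap and at 5 CPM or more, and the 4 higher and 4 lower genes with the highest CPM; since identifiers have no names, 2 per class and direction are printed. Neighbours of the G locus gene and genes in runs were chosen after their values were seen. Planned gene lists, trichome regulators included, could not be matched to identifiers (0 lists). The comparison, lists and rules were chosen with earlier results of these data known.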

Additional observations from a re-analysis of the deposited data

Results flagged for a closer look

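Single libraries far from the others of their accession appeared in 9 of the 35 groups of values examined (25.7%), and 7 of the 9 were TN7 5. Chance flags about 1 in 20 of independent groups. These groups share libraries, and some of the genes are neighbours or were chosen after their values were seen. That rate is therefore no measure for them. TN7 5 was the highest TN7 library for Prupe.3G012400.v2.1 (5975 CPM), Prupe.3G012200.v2.1 (3248 CPM), Prupe.3G012600.v2.1 (39.8 CPM), Prupe.3G144000.v2.1 (8.75 CPM), Prupe.3G144100.v2.1 (94.9 CPM) and Prupe.5G196000.v2.1 (25.5 CPM), all genes higher in Sunraycer. TN7 5 also had the lowest mean correlation with the other TN7 libraries, 0.947. Sunraycer 4 was far above the other Sunraycer libraries for Prupe.1G205600.v2.1, at 2428 CPM. Sunraycer 1 was the sole Sunraycer library with counts of Prupe.8G026800.v2.1, at 0.518 CPM.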

How the results depend on the processing

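The count of 3129 called genes (1880 higher, 1249 lower) became 6967 by adjusted p alone (3599 higher, 3368 lower). With the score of spread as a covariate it was 2163, with 1049 higher and 1114 lower genes. With only the 9 libraries of Sunraycer and TN7 it was 2337 (1451 higher, 886 lower), and 2296 of the 3129 stayed called. With Sunraycer 1 and TN7 5 left out it was 3397, with 2233 higher genes. Leaving out 1 library at a time gave 2611 to 3922 called, 1461 to 2506 higher and 1068 to 1476 lower genes. The gap between the chromosomes with the highest and lowest share of calls was 4.9 percentage points, and 4.3 by adjusted p alone. Higher genes made up 60.1% of the calls, and 48.5% with the covariate, 51.7% by adjusted p alone, 54.9% to 63.9% without 1 library and 54.9% to 65.7% in the other settings tried. Of 551 values of the 29 named genes under alternatives, 29 came from the main fit by adjusted p alone and could not change. In all, 488 values, those 29 included, kept their direction and their side of the threshold. The call was lost in 58, 9 of them with the covariate, and 5 values turned sign. All 5 were of Prupe.5G196200.v2.1, which was not called in any setting (log2 fold change -0.03): 0.015 with RLE, 0.015 with DESeq2, 0.028 with the replicate block, 0.014 without Sunraycer 2 and 0.060 without Sunraycer 10, where leaving out 1 library at a time gave -0.10 to 0.060. The cause was not tested. The exact permutation p of the G locus gene, 0.0159, is the smallest possible and cannot differ between CPM and log2 CPM, as the libraries do not overlap.

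Same-numbered libraries of Sunraycer and TN7 did not deviate together for every number (correlations -0.547, 0.367 and 0.536), so the numbers were not taken as pairs. With a replicate block 3088 genes were called, 1694 higher and 1394 lower, and 2688 of the 3129 stayed called; 3 named genes lost the call, among them Prupe.3G012400.v2.1 (edgeR adjusted p = 0.0583) and Prupe.3G012200.v2.1 (0.0723). Counts per gene list were not run, because no list could be matched. Depth limits the genes without counts, for which 3 counts over an accession is the floor.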
